A study of Mus musculus with 8 samples.

Results

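Transcripts of 9 mouse genes that encode the chains of major histocompatibility complex (MHC) class I molecules were examined in lung RNA libraries. They were taken by gene name, and all 9 stood in the deposited table of 39290 gene names: H2-K1, H2-D1, H2-T23, H2-T22, H2-Q4, H2-Q6, H2-Q7, H2-M3 and B2m. The genes were picked with their difference between the groups already known, so that difference is given as a description: no p-value is printed for any of them, and a count of how many pass a threshold stands only beside the share over all genes. By the series title, the mice were a model of idiopathic pulmonary fibrosis, in which lung tissue scars, and the compound was Platycodin D, a saponin made by a plant. The libraries were titled high dose (4 libraries) and model (4 libraries). The sources used here do not give strain, age, the agent that made the model, the dose or whether the 4 libraries of a group were separate animals, so any spread between libraries may be technical. The labels name lung tissue and also a mouse lung fibroblast line for every library. Alveolar type 2 markers summed to 14086 to 20542 FPKM in high dose and 10542 to 15697 FPKM in model, so transcripts of lung epithelium were abundant in both. The initials in the column codes would suit the reverse of the titles, which were followed, and if the titles had been exchanged every direction below would turn.

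A class I molecule is a heavy chain held together by a small light chain, beta-2 microglobulin, and it carries a peptide to the surface of nearly every nucleated cell. Peptides are cut by the proteasome, moved into the endoplasmic reticulum by a transporter and loaded there. Classical heavy chains show peptides to CD8 T cells, while the non-classical chains have narrower tasks, and interferons raise the expression of most of these genes through factors such as Irf1 and the coactivator Nlrc5.

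Promoter windows of the 9 genes are shown first as a description, and no link between their motifs and the levels was tested. The windows run from 250 bases before to 50 bases after a RefSeq start and come from GRCm38.p6, whereas the deposited values were made on mm39, and all 9 symbols matched. The stretches below run, with 6 flanking bases on each side, from the first match of an NF-kB motif (GGGG, any base, TT, any base, CC) or of an interferon-stimulated response element core (GAAA, any 2 bases, GAAA) to the last CCAAT box, read on the strand of the gene. Capitals mark those motifs, the core of the cAMP response element (TGACG) and the CCAAT box, each searched on both strands, and no 2 matches overlapped. H2-K1 and H2-D1 are the classical chains, and H2-Q4 stands for the Q genes, H2-T23 and H2-T22 for the T genes and B2m for the light chain.
H2-K1, chr17:34000329-34000464, minus strand: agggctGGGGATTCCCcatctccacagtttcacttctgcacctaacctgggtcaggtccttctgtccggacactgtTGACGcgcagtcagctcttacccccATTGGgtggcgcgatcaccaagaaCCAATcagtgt
H2-D1, chr17:35262917-35263051, plus strand: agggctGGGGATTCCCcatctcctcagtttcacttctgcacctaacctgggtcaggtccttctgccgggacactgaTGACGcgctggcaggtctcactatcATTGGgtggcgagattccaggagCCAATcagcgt
H2-Q4, chr17:35379437-35379572, plus strand: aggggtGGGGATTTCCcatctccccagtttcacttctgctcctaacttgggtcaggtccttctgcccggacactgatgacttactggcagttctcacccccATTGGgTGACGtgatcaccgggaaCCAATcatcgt
H2-T23, chr17:36032743-36032831, minus strand: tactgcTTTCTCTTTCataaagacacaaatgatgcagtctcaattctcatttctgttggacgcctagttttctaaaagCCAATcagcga
H2-T22, chr17:36042795-36042939, minus strand: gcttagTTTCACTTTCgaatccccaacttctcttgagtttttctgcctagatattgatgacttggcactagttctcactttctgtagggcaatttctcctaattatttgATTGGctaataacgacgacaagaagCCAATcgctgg
B2m, chr2:122147542-122147644, plus strand: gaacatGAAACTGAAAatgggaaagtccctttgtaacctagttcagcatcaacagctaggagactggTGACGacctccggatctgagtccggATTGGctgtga

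The NF-kB letters stood in 5 of the 9 windows (H2-K1, H2-D1, H2-Q4, H2-Q6 and H2-Q7) and in 1.20% of 27025 promoter windows of the same length. Windows of those 5 genes share much of their sequence, so they are not 5 separate cases to set against that share. The interferon-stimulated response element core stood in 3 of 9 (H2-T23, H2-T22 and B2m) and in 3.49% of all windows. No window held a match of both, and the window of H2-M3 held a match of neither. The search took only these exact letters and spacings, so near forms of either element were not counted. A missing match therefore does not show that a window lacks such an element. The CCAAT box was in 9 of 9 windows against 37.9% of all, the cAMP response element core in 7 of 9 against 21%, and a gamma-activated site (TTCNNNGAA), found in H2-M3, in 1 of 9 against 8.47%. From the NF-kB match to the end of the last CCAAT box there were 122 to 124 bases in the 5 genes with that match. A run of 15 bases, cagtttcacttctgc, looked for after the stretches had been read, was common to those 5. Counting 1 window per gene, it stood in 6 of 27025 (0.0222%), namely in those 5 genes and in H2-Q10. These are matches of letters and were not measured as binding.

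All 9 genes passed the filter of a mean of at least 1 FPKM (fragments per kilobase of transcript, scaled to the size of the library, the unit inferred from the values) over the 8 libraries, and each had lower values in high dose than in model. In 9 of 9 the high dose and model libraries did not overlap, where 6.46% of 14418 genes tested were lower in that way. In the fit across all genes with limma 9 of 9 were past an adjusted p of 0.05, where 4.27% of genes were called lower and 5.86% higher. Without 1 library 7 to 9 of the 9 were past it. Since the 9 were picked with this contrast known, nothing is read from those counts. Their log2 fold changes (high dose minus model, fitted to the log2 of FPKM + 1) had a median of -1.28 and ran from -1.66 to -0.67, against a median of 0.04 over all genes tested. In bulk tissue, fewer cells that carry a transcript and less of it per cell cannot be told apart.

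**Figure D1:**
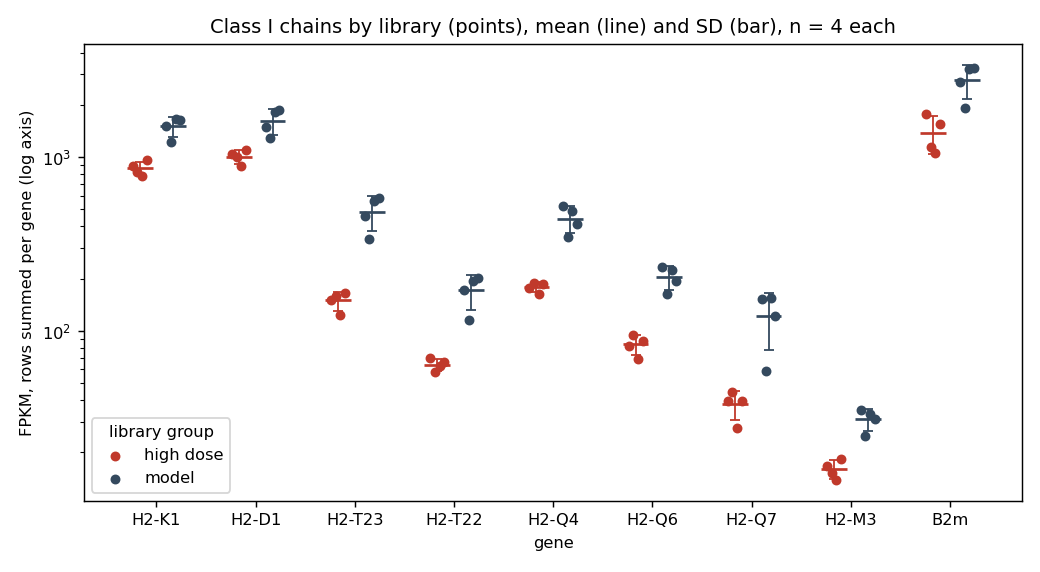
FPKM of the 9 class I genes (rows summed per gene, log axis) in the 4 high dose and 4 model libraries; points are libraries, horizontal lines means and vertical bars SD. In each gene the 4 high dose points lie below the 4 model points, and the means lie farthest apart for H2-T23 and H2-Q7 and closest for H2-D1 and H2-K1.

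The classical heavy chains were among the most abundant transcripts and had the smallest differences. H2-K1, which presents peptides to CD8 T cells, had 888, 821, 784 and 959 FPKM in the high dose libraries and 1504, 1219, 1648 and 1635 FPKM in the model libraries. Its log2 fold change was -0.79 ± 0.13 (SE), with the lowest model library still above the highest high dose library. H2-D1, the other classical chain measured, had 1040.2, 999, 888 and 1095 FPKM in high dose and 1492, 1292, 1821 and 1862 FPKM in model. The log2 fold change of H2-D1 was -0.67 ± 0.14, the smallest of the 9. On the level scale the means were 1.74 times lower in high dose for H2-K1 and 1.61 times lower for H2-D1.

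The T region genes showed larger differences. H2-T23 encodes Qa-1, which holds leader peptides of other class I chains and is read by the CD94 and NKG2 receptors of natural killer cells. It had 151, 158, 123 and 166 FPKM in high dose and 457, 339, 556 and 581 FPKM in model, a log2 fold change of -1.66 ± 0.18. The high dose libraries were close together and the model libraries spread wider, with an SD of 18.7 FPKM against 110.3 FPKM (n = 4 each). Relative to the mean the contrast was smaller, with a coefficient of variation of 12.5% in high dose and 22.8% in model. H2-T22, a chain recognised by some gamma-delta T cells, had 69.4, 58.0, 62.3 and 65.9 FPKM in high dose and 173, 116, 194 and 202 FPKM in model. Its log2 fold change was -1.38 ± 0.17, and its mean was 2.68 times lower in high dose, against 3.23 times for H2-T23.

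The Q region genes lay between these values or beside them. H2-Q4 had 177, 189, 162 and 187 FPKM in high dose and 521, 346, 489 and 413 FPKM in model, a log2 fold change of -1.29 ± 0.14. H2-Q6 and H2-Q7 encode Qa-2 chains. H2-Q6 had 82.2, 94.9, 69.0 and 87.6 FPKM in high dose and 235, 164, 225 and 194 FPKM in model, a log2 fold change of -1.28 ± 0.14. H2-Q7 had 39.4, 44.7, 27.5 and 39.5 FPKM in high dose and 152, 58.7, 154 and 121 FPKM in model, with a log2 fold change of -1.59 ± 0.30. H2-Q7 was the least even of the 9 among the model libraries, with a coefficient of variation of 36.6% there and 19.3% in high dose. Its lowest model library, with 58.7 FPKM, lay closer to the highest high dose library, with 44.7 FPKM, than to the other model libraries.

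H2-M3, which presents peptides that begin with a formylated methionine, as bacterial and mitochondrial peptides do, was the lowest of the 9. It had 16.6, 15.3, 13.8 and 18.3 FPKM in high dose and 35.2, 24.7, 33.1 and 31.2 FPKM in model, a log2 fold change of -0.91 ± 0.13. B2m, the light chain shared by all class I molecules, was the highest. It had 1779.5, 1143, 1058 and 1546 FPKM in high dose and 2693, 1922, 3216 and 3279 FPKM in model, a log2 fold change of -1.01 ± 0.22. The gap between the groups was narrow for B2m, with 1779.5 FPKM in the highest high dose library and 1922 FPKM in the lowest model library.

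The same libraries tended to be low for the 9 genes. High dose replicate 3 had the lowest high dose value in 8 of 9 (in H2-T22 it was high dose replicate 2), while it was lowest for 17.4% of the genes tested. Model replicate 2 had the lowest model value in 9 of 9, and it was lowest for 28.5% of the genes tested. The highest model value lay in model replicate 4 for 4 genes (H2-D1, H2-T23, H2-T22 and B2m), in model replicate 1 for 3 (H2-Q4, H2-Q6 and H2-M3) and in model replicate 3 for 2 (H2-K1 and H2-Q7). Among the 8 fits that each left out 1 library, the fold change of each of the 9 was largest without model replicate 2, at -1.90 for H2-Q7 and -0.89 for H2-K1.

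Class I genes share sequence, and the table listed most of them on several rows of the same name. The 9 names stood on 31 rows, of which 25 had a mean of at least 1 FPKM and 6 a mean under 0.1 FPKM. H2-D1 had 4 rows of nearly equal level, with means of 267, 259, 238 and 241 FPKM in high dose and 420, 405, 398 and 394 FPKM in model. H2-K1 had 2 rows of nearly equal level, with 428 and 435 FPKM in high dose and 743 and 759 FPKM in model, and 2 rows under 0.1 FPKM. B2m had 1 row, and H2-T23 and H2-T22 each had 1 filled row, the other rows being under 0.1 FPKM. What the rows stand for, and whether fragments were counted on more than 1 of them, is not stated, so summed levels of genes with several filled rows may be inflated.

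The direction was the same in each filled row. All 25 rows of at least 1 FPKM had a lower mean in high dose, with log2 ratios of the means from -2.03 to -0.64, and in 23 of them the libraries did not overlap. The rows with overlap were the first row of H2-Q7 and the second row of H2-M3. The 4 rows of H2-Q7 had ratios from -2.03 to -1.05, those of H2-Q4 from -1.54 to -1.23 and those of H2-D1 from -0.75 to -0.64. In GENCODE M21 transcripts, 16.4% of the 100-base windows of the longest coding transcript of H2-Q7 also occurred in another gene, 14.2% of those of H2-T22, 10.8% of H2-Q6 and 7.28% of H2-T23. The share was 4.64% for H2-D1, 2.66% for H2-Q4 and 0 for H2-K1, H2-M3 and B2m. How the authors divided fragments between such copies is not known, which makes the values of genes with shared windows less certain. This measure does not cover rows of the same name. H2-M3 shared no window with another gene, yet its 4 rows had ratios from -1.21 to -0.65.

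**Figure D2:**
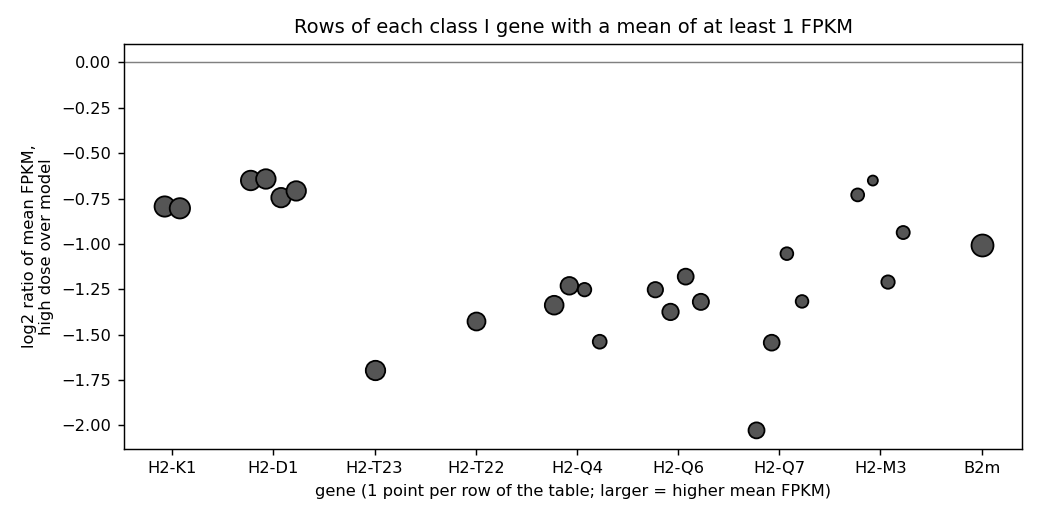
Log2 ratio of mean FPKM, high dose over model, for each of the 25 rows with a mean of at least 1 FPKM, grouped by gene; larger points have a higher mean. Each row lies below 0, rows of H2-D1 and of H2-K1 lie close together, and rows of H2-Q7 spread from -2.03 to -1.05.

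Because FPKM is scaled by length, levels can be ordered between genes, within the limit of the rows. With rows summed, the order in high dose was B2m, H2-D1, H2-K1, H2-Q4, H2-T23, H2-Q6, H2-T22, H2-Q7 and H2-M3. The ranges of 4 neighbouring pairs overlapped there, namely B2m with H2-D1, H2-D1 with H2-K1, H2-Q4 with H2-T23 and H2-Q6 with H2-T22. In model the order differed only in that H2-T23, with a mean of 483 ± 110.3 FPKM (SD, n = 4), came before H2-Q4, with 442 ± 78.8 FPKM. The pair overlapped in both groups. By the highest row of each gene, H2-K1 followed B2m in both groups and H2-T23, with 483 FPKM, stood above H2-D1, with 420 FPKM, in model, where the ranges overlapped, but below it in high dose, with 149 against 267 FPKM, where they did not.

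Among the 8 heavy chain members, the make-up of the summed transcripts differed between the groups. These shares follow from the levels above, of genes picked with this contrast known, so they are only a description. Other heavy chains, such as H2-Q9 and H2-T24, are not in the sum. The 6 non-classical genes made up 21.7%, 23.5%, 21.5% and 21.5% of the summed heavy chain FPKM in the high dose libraries and 34.4%, 29.4%, 32.3% and 30.6% in the model libraries. By the highest row of each gene the shares were 33.6% to 35.6% in high dose and 44.9% to 49.9% in model. The groups did not overlap on either basis. The T genes took 8.90% ± 0.159 of the sum in high dose and 14.2% ± 1.18 in model (SD, n = 4 each), and the Q genes 12.5% ± 0.864 in high dose and 16.8% ± 2.28 in model, all with rows summed. By the highest row the Q shares overlapped, with up to 15.4% in high dose and from 15.3% in model. H2-M3 took 0.666% in high dose and 0.683% in model (means, n = 4 each), and the groups overlapped.

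The ratio of heavy chains to the light chain overlapped between the groups. The summed heavy chains were 2464, 2379.7, 2129 and 2618 FPKM in high dose and 4568, 3559, 5122 and 5039.7 FPKM in model. With rows summed, division by B2m of the same library gave 1.38, 2.08, 2.01 and 1.69 in high dose. In model it gave 1.70, 1.85, 1.59 and 1.54. By the highest row of each gene the ratios ran from 0.61 to 0.96 in high dose and from 0.76 to 0.90 in model. Whether the heavy chains together exceeded B2m thus depended on the rows used. The high dose ratios ran past the model ratios at both ends. The coefficient of variation of B2m among the high dose libraries was 24.6%, the highest of the 9 there.

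**Figure D3:**
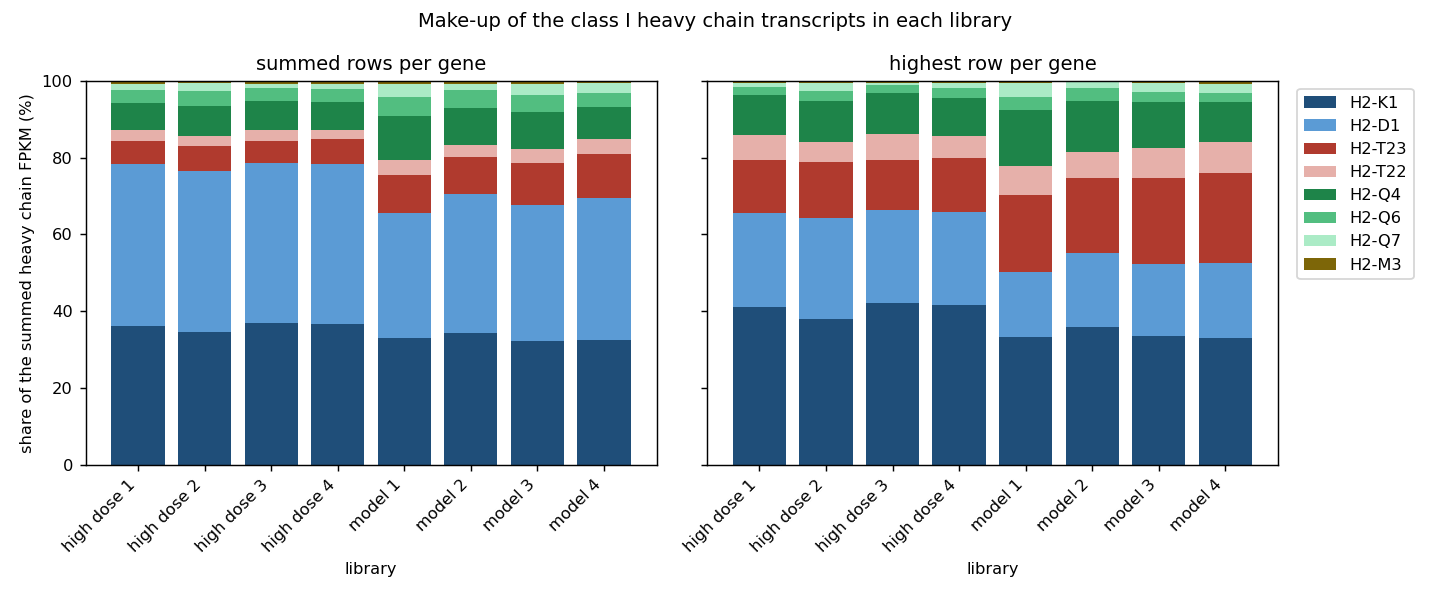
Share of the summed heavy chain FPKM taken by each of the 8 heavy chain genes in each library (stacked bars, 0 to 100%), with rows summed per gene (left) and with the highest row of each gene (right). The blue classical part is taller in the 4 high dose libraries than in the 4 model libraries in both panels.

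Among other class I and class I-like genes, 4 chains of the Q and T regions fell. Of 31 such names 26 were found by gene name and 14 were tested, of which 4 fell, 0 rose and 10 did not pass, with a median log2 fold change of -0.18 against 0.04 over all genes tested. H2-T24 had 16.8 ± 3.30 FPKM in high dose and 58.9 ± 15.1 FPKM in model (SD, n = 4 each; log2 fold change -1.73 ± 0.20, limma adjusted p = 0.00404). H2-Q9 had a log2 fold change of -1.70 ± 0.20 (limma adjusted p = 0.00404), H2-Q10 of -1.68 ± 0.28 (adjusted p = 0.00963) and H2-Q8 of -0.94 ± 0.17 (adjusted p = 0.0121). These genes are close paralogs of the 9, so fragments may be split among them. Also of the Q and T regions, H2-Q1 (log2 fold change -0.46), H2-Q2 (0.10) and H2-T10 (-0.45) were tested and did not pass. Mr1, which presents vitamin metabolites to mucosal T cells and was named after its values were seen, had 17.4 ± 0.892 FPKM in high dose and 11.7 ± 2.87 FPKM in model and did not pass (limma adjusted p = 0.0583).

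Of 14 genes that supply and load class I peptides 9 fell, 0 rose and 5 did not pass, with a median log2 fold change of -0.66. Tap1, a subunit of the peptide transporter, had 29.7 ± 3.92 FPKM in high dose and 122 ± 27.8 FPKM in model (SD, n = 4 each; log2 fold change -1.98 ± 0.18, limma adjusted p = 0.00228), and its partner Tap2 one of -0.99 ± 0.13 (adjusted p = 0.00443). The catalytic subunits of the immunoproteasome fell too, with log2 fold changes of -1.51 ± 0.16 for Psmb9 (limma adjusted p = 0.00296), -1.26 ± 0.18 for Psmb8 (adjusted p = 0.00592) and -1.01 ± 0.15 for Psmb10 (adjusted p = 0.00605). Those that did not pass were the trimming protease Erap1 (log2 fold change -0.31) and the general chaperones of the endoplasmic reticulum Calr, Canx, Pdia3 and Uggt1, which serve many proteins besides class I chains and had values from 0.12 to 0.51. Without model replicate 3, 6 of the 14 fell.

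Of 17 regulators of class I genes 6 fell, 0 rose and 11 did not pass, with a median of -0.12. Nlrc5, the coactivator of class I promoters, had 8.52, 4.85, 5.08 and 5.41 FPKM in high dose and 28.2, 13.9, 23.5 and 28.3 FPKM in model (log2 fold change -1.79 ± 0.24, limma adjusted p = 0.00476). Irf1, an interferon-induced activator, had a log2 fold change of -1.54 ± 0.16 (limma adjusted p = 0.00296). The log2 fold change was -0.57 ± 0.09 for Irf2 (limma adjusted p = 0.00936) and -0.63 ± 0.11 for Irf9 (adjusted p = 0.00959). The subunits of the constitutive factors RFX and NF-Y, the CRE-binding factors Creb1 and Atf1 and the NF-kB genes Rela and Nfkb1 did not pass.

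Of 11 tested genes of interferon ligands, receptors and proximal signalling 1 fell and 0 rose, namely Socs1, a feedback inhibitor (log2 fold change -1.33 ± 0.30, limma adjusted p = 0.0264). With no filter on low genes that call of Socs1 was lost (limma adjusted p = 0.0551), and so it was in 6 of 8 fits without 1 library (all but those without model replicates 2 and 4), with limma adjusted p up to 0.0754. Ifng, which encodes interferon gamma, lay below the filter and was not tested, with 0.324, 0.132, 0 and 0.303 FPKM in high dose and 1.95, 0.609, 2.22 and 1.95 FPKM in model. Ifngr1 and Ifngr2, the chains of its receptor, did not pass.

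MHC class II genes make products that present peptides to CD4 T cells on dedicated antigen-presenting cells. Of 12 tested 0 fell, 1 rose and 11 did not pass, with a median of -0.28, where 4.27% of all genes fell and 5.86% rose. H2-Aa had 493 ± 151 FPKM in high dose and 594 ± 71.5 FPKM in model (SD, n = 4 each), groups that overlapped (limma adjusted p = 0.386). Ciita, the class II coactivator, had a log2 fold change of -1.25 ± 0.34 and did not pass (limma adjusted p = 0.0539, and 0.009 without model replicate 2). The gene that rose was H2-DMb2, a chain of the class II peptide editor (0.61 ± 0.16, limma adjusted p = 0.0456), and the call was lost in 11 of 18 alternatives. The difference between class I and class II genes was not tested.

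Receptors that read class I chains were lower as well. Of 13 tested on this list 10 fell, 0 rose and 3 did not pass, with a median of -1.20. The list also held Fpr1, which binds formylated peptides directly and is no receptor of a class I chain, and it is 1 of the 10. Klrd1, the CD94 chain that reads Qa-1, had 5.87, 5.83, 6.45 and 6.81 FPKM in high dose and 16.9, 9.42, 23.2 and 15.8 FPKM in model (log2 fold change -1.20 ± 0.22, limma adjusted p = 0.014). The Ly49 genes Klra2, Klra4, Klra8 and Klra9, which have close paralogs, fell, with log2 fold changes from -2.35 ± 0.23 for Klra2 to -1.48 ± 0.29 for Klra9 (limma adjusted p = 0.00289 to 0.0155). Cd8a and Cd8b1, the coreceptor of classical class I recognition, did not pass. With 1 library left out 6 to 12 of the list fell, 6 without high dose replicate 2.

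The genes whose pattern over the 8 libraries was most like that of the 9 were found among 10018 others with a mean of at least 5 FPKM. Likeness was the root mean square difference between the centred log2(FPKM + 1) values of a gene and the mean of the 9. The nearest were F630028O10Rik (0.118), Uba7 (0.125), which encodes the activating enzyme of the ubiquitin-like protein Isg15, Pstpip1 (0.127), a cytoskeletal adaptor of leukocytes, and Psmb8 (0.135), against a median of 0.665 over all 10018. S1pr5 (0.141), a receptor by which natural killer cells leave tissue, Sirpb1c (0.152), Slfn2 (0.152) and Tnfrsf14 (0.153) followed. Of the 9 themselves H2-Q4 (0.128) and H2-Q6 (0.130) lay nearest their mean and H2-Q7 (0.324) farthest. Sirpb1c and Slfn2 have close paralogs, so their values are less certain.

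**Figure D4:**
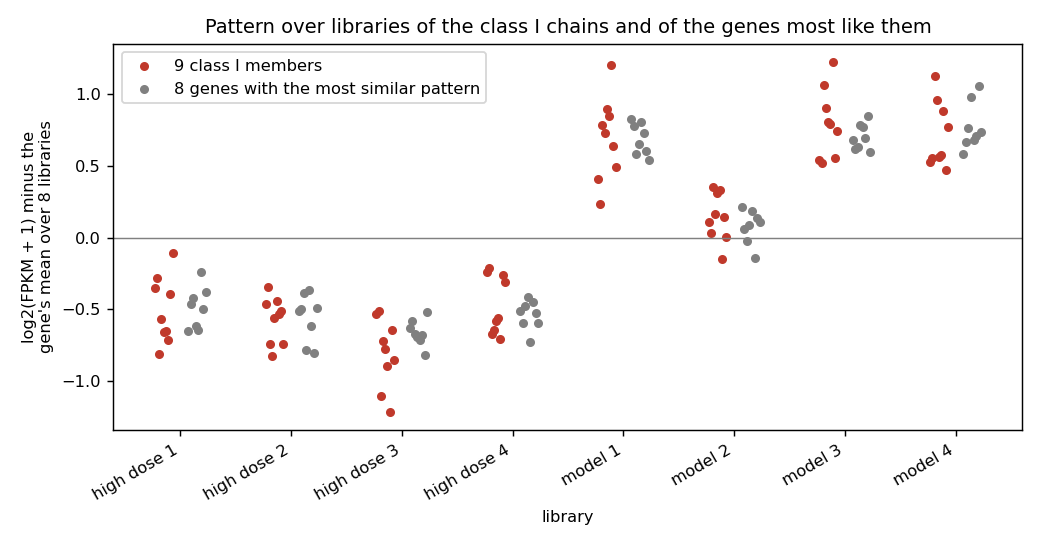
Log2(FPKM + 1) minus the mean of the gene over the 8 libraries, for the 9 class I genes (red) and the 8 genes most like them (grey), by library. The high dose libraries lie below 0 and model replicates 1, 3 and 4 above it, with model replicate 2 nearest 0, where the mean of the 9 is 0.14.

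Markers of several leukocyte classes moved with the 9 genes, and their part in the result was not tested. Of 6 natural killer cell markers 6 fell, with sums of 38.7 to 57.0 FPKM in high dose and 136 to 685 FPKM in model, and of 6 neutrophil markers 6 fell, with sums of 110.4 to 411 FPKM in high dose and 1051 to 2731 FPKM in model. Of 5 monocyte markers 2 fell (100.1 to 268 FPKM in high dose, 137 to 289 FPKM in model), and of 4 markers of all leukocytes 2 fell (260.1 to 309.8 FPKM in high dose, 317 to 543 FPKM in model). Of 4 platelet markers 1 fell (50.9 to 98.7 FPKM in high dose, 69.7 to 154 FPKM in model), 2 of 6 alveolar type 2 markers rose, and 2 of 5 alveolar type 1 markers rose (1363 to 1931 FPKM in high dose, 1089 to 1595 FPKM in model). None of the T cell, B cell, alveolar macrophage, ciliated cell, endothelial, fibroblast and erythroid markers passed. In that order the medians of their log2 fold changes were -0.01, 0.61, -0.21, 0.33, 0.11, 0.49 and 0.48. Fibroblast markers summed to 390 to 491 FPKM in high dose and 194 to 402 FPKM in model. A class without a marker past the threshold is thus not shown to be level. No marker was at 0 in all libraries.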

How the data were processed

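RNA libraries of mouse lung, 4 titled high dose and 4 titled model, were compared. The authors deposited 1 table of expression values with no named unit, which was read as FPKM because it holds decimals whose library sums, 845852 to 1249860, differ; how the authors normalized it is not stated. The submitters' processing notes name the build mm39. Aligner, quantifier and annotation are not given in the sources used here. Reads per library were not given, and ratios among rows under 0.3 FPKM put relative depth at 1.00 to 1.34, roughly. Rows without a gene name (7015 of 48632) held 50.0% to 65.2% of the FPKM sum and were not used.

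Rows were summed per gene name. Of 39290 names, 14418 had a mean of at least 1 FPKM and were tested with limma 3.58.1 in R 4.3.3 on log2(FPKM + 1), with group as the only term, trend and robust settings, two-sided p-values and Benjamini-Hochberg adjustment over all 14418 (threshold 0.05). The fit was also run on simulated data with independent noise for each gene and library, and the outcome is not reported here. Fold changes on log2(FPKM + 1) understate those of low genes. SD is over 4 libraries, and SE is that of the fitted fold change. Figures used Python 3.11.15 and matplotlib 3.10.9.

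The 9 members, the gene lists and the alternatives were chosen with earlier results of these data known. Named outside the 9 were up to 5 called genes of each list with the smallest p, genes set by name (Nlrc5, Irf1, Tap1, Psmb8, Ciita, Ifng and 1 that is not reported here) and the 8 most similar genes. Other genes were named after their values were seen. Promoter windows came from RefSeq (GRCm38.p6).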

Additional observations from a re-analysis of the deposited data

Results flagged for a closer look

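In 11 instances the highest or lowest library of a group stood far from the other 3, judged by Dixon's ratio of the gap to the range. In all 194 groups of libraries were looked at, and chance gives about 1 in 20 such gaps. None concerned the 9 class I genes. High dose replicate 1 stood high for H2-Q9 (19.4 FPKM), Nlrc5 (8.52, next 5.41), Usp18 (18.1, next 14.8) and Pirb (21.3). High dose replicate 4 stood high for H2-Oa (9.46 FPKM, next 5.89). Model replicate 2 stood low for Sirpb1c (14.8 FPKM, next 27.2) and Tap1 (80.8, next 133). Model replicate 1 stood low for Hfe (9.84 FPKM, next 13.3) and Canx (31.6, next 79.1) and high for Creb1 (13.9, next 10.8). Model replicate 4 stood low for Nfyb (13.4 FPKM, next 14.8).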

How the results depend on the processing

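Under the 18 alternatives the log2 fold change of each of the 9 class I genes kept its sign. Since they were picked with this contrast known, a pass is no sign of stability, and the misses alone are listed. H2-Q7 missed the threshold with the replicate number as a block. H2-D1 missed it in 4 (quantile normalization, and without high dose replicates 2 and 3 or model replicate 3) and B2m in 6 (no filter, and without high dose replicates 2 and 3 or model replicates 1, 3 and 4). Over all genes 845 were higher, 518 without the filter on low values and 486 with the replicate block; without 1 library 364 to 1178 were higher and 329 to 970 lower. Deviations of same-numbered libraries correlated at 0.15, 0.28, -0.07 and -0.09, and 1 of 4 high dose libraries correlated best with its own number. Whether the numbers pair the samples was not tested and cannot be told from so few values. Among class II genes the 1 that rose was lost (0) without the filter, without trend, with rescaling and with the replicate block, and 1 fell with pseudocounts of 0.1 and 0.01, a minimum of 5 FPKM, quantile normalization, median centring and rows not summed. Without trend 1 of the other class I chains rose. Without 1 library, 0 to 1 class II genes rose and 0 to 1 fell, 0 to 1 other class I chains rose, 0 to 2 interferon signalling genes fell, and 6 to 9 loading genes and 6 to 12 receptors fell. With rows not summed the non-classical share was 34.4% in high dose and 47.4% in model. Where a count moved, the cause was not tested.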
